A study of Mus musculus with 28 samples.

Results

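The 10 genes described here code for the main molecular chaperones of the heat shock response, and were followed through every probe set annotated to them on expression arrays of mouse heart. They are Hspa1a, Hspa1b, Dnajb1, Hsp90aa1, Hsph1, Hspb1, Hspa8, Hspd1, Hspe1 and Hspa5. They were chosen by name, with earlier results of these data known. A script took all probe sets whose annotation gives one of these symbols. This gave 25 probe sets of the 45037 tested, and 10 genes of the 18193 that have a probe set with a single gene symbol. None of the 25 carries several symbols, so no probe set is annotated as shared by Hspa1a and Hspa1b.

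Total RNA from frozen hearts of 28 mice was hybridised to 1-colour arrays, 1 array for each mouse, in 4 groups of 7. The groups are untreated control mice, control mice given WY14643, untreated del337TR mice, and del337TR mice given WY14643. WY14643 is an activator of the nuclear receptor PPARalpha, and del337TR is the labels' name for a strain with a deletion, in a series on resistance to thyroid hormone. A mutation of this name is known in the thyroid hormone receptor beta gene, where it gives a receptor that cannot bind hormone and blocks the normal one. The labels do not state the altered gene, zygosity, dose, duration, age or sex. The control group carries no deletion, and all 4 groups share the tissue.

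Heat shock proteins are chaperones, which hold unfolded proteins and help them to fold. Cells raise most of them together when proteins are damaged by heat, oxidation or poisons, because the transcription factor HSF1 is released from chaperones, forms trimers and binds repeated GAA units in their promoters. The heart makes several of them at high levels without any stress, and the inducible Hsp70 genes are known for a low basal output that can rise steeply. Hspa5 belongs to a separate response, in which unfolded protein in the endoplasmic reticulum acts through other factors and another promoter element.

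The promoters of the members are shown as background. Whether their motifs bear on the covariation between hearts, described further on, was not tested. Promoter entries were found for 8 of the 10 genes, all but Hsp90aa1 and Hspa8, in 11 windows of RefSeq on build GRCm38.p6. The 250 bases before each start site were searched on both strands. The motifs were the head-to-head unit GAANNTTC, the tail-to-tail unit TTCNNGAA, and runs of 3 units written GAANNTTCNNGAA. The 2 short motifs are their own reverse complements, and each run of 3 contains one of each. Of all 32817 promoter windows, 6.69% hold the first motif, 7.16% the second, 12.8% either and 0.466% a run of 3. Either short motif was found in 6 of the 8 genes. The matched letters are in capitals, 5′ to 3′ on the gene's strand.
Hspa1a, chr17:34972238-34972275, minus strand: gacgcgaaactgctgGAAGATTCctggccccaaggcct
Hspa1b, chr17:34959320-34959357, minus strand: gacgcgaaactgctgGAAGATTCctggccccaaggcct
Hspb1, chr5:135887787-135887844, plus strand: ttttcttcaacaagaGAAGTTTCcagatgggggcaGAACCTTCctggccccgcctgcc
Hsph1, chr5:149636347-149636384, minus strand: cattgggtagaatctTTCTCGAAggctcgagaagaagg
Hspe1 and Hspd1, chr1:55088044-55088091, plus strand: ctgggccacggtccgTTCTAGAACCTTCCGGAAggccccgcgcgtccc

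The Hspa1a and Hspa1b stretches are identical, and their matches lie 104 to 97 bases before each start site. Over the whole 250 bases the promoters of this gene pair, whose start sites are 12918 bases apart, are 98.8% identical. They differ at 3 places, C207T, T204C and T2G, counted back from the start site with the Hspa1a base first. Hspd1 and Hspe1 are divergent neighbours. Of the 2 Hspd1 start sites, 1 lies 216 bases and the other 95 bases from that of Hspe1. The stretch shown holds 2 overlapping runs of 3 units. It lies in the upstream window of Hspe1 and of 1 of the 2 Hspd1 start sites. No heat shock unit of these spellings was found in either Dnajb1 window.

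Hspa5 has no match to the heat shock units but holds the endoplasmic reticulum stress element, spelled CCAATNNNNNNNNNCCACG, which includes a CCAAT box. That element was found in 0.113% of all windows, on either strand. Its match lies 65 to 47 bases before the Hspa5 start site.
Hspa5, chr2:34772010-34772058, plus strand: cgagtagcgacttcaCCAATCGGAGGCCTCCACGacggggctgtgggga

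The deposited values are intensities on a linear scale, with the same trimmed mean of 250 on every array. They are called signals below, and differences are log2 differences of group means ± SE from a limma model of all 28 arrays. Adjusted p-values are Benjamini-Hochberg values over all 45037 probe sets. Signals of different probe sets depend on the probes, so only groups within a probe set are compared. The array medians lay between 60.0 and 77.8. The ratio of the 3′ to the 5′ actin probe set, which rises with RNA breakdown, averaged 1.25 ± 0.12 (SD, n = 7) in control, 1.29 ± 0.08 in del337TR, 1.39 ± 0.21 in treated control and 1.23 ± 0.09 in treated del337TR hearts. All 10 cardiomyocyte marker genes had strong signals on every array, with Myh6 at 11949.2 or above and Tnnt2 at 13445.3 or above. Expression of Xist and the Y-linked gene Eif2s3y showed females and males in every group, 2 and 5 in control, 4 and 3 in del337TR, 3 and 4 in treated control, and 1 and 6 in treated del337TR.

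No member passed an adjusted p of 0.05 in any comparison. In del337TR against control without WY14643, 0 of 25 probe sets passed, against 0.00222% of all probe sets. The background was 0% in each of the other 4 comparisons, where 0 of 25 passed as well. The lowest adjusted p of any member was 0.428, for Hsp90aa1 in del337TR against control under WY14643. The 95% intervals given below are for single probe sets and carry no correction for the 45037 tests.

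The inducible Hsp70 genes Hspa1a and Hspa1b had the largest differences of the members with WY14643 in del337TR mice. Both code for nearly the same protein, the stress-induced Hsp70 that binds unfolded chains. The Hspa1a signal ranged from 159.8 to 529.2, with a median of 393.4, in control hearts, and from 284.8 to 718.1, with a median of 489.9, in treated control hearts. It ranged from 158.3 to 855.6, with a median of 462.9, in del337TR hearts. In treated del337TR hearts it ranged from 577 to 1340.8, with a median of 789.6. All 7 treated del337TR hearts lay above the untreated del337TR median, 2 of them lay above every untreated del337TR heart, and the groups overlapped.

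With WY14643 in del337TR mice, the Hspa1a log2 difference was 0.89 ± 0.33, a fold of 1.85, with a 95% interval from 0.22 to 1.56 and a limma adjusted p of 0.794. In control mice the difference with WY14643 was 0.51 ± 0.33 with an adjusted p of 0.791. The difference between those responses was 0.37 ± 0.46, with a 95% interval from -0.57 to 1.32 (limma adjusted p = 0.971). This interval includes no difference as well as a response in del337TR mice larger by more than 1 log2 unit. Against control, untreated del337TR hearts differed by 0.28 ± 0.33 and treated ones by 0.65 ± 0.33. Single hearts moved these values. The difference with WY14643 in del337TR mice was 0.65 without replicate 6 and 1.05 without replicate 3 of the del337TR group. The untreated strain difference was 0.091 without replicate 7 of the control group and 0.52 without replicate 6 of the del337TR group. The difference between responses was 0.56 and 0.14 without the same hearts. Replicate 7 of the control group, at 159.8, and that of the treated control group, at 284.8, had the lowest Hspa1a signals of their groups. Their actin ratios, 1.52 and 1.82, were above those of all other arrays. The part of RNA breakdown in these values was not tested.

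Hspa1b was measured by 3 probe sets that ranked the hearts almost alike, with correlations of 0.94 to 0.98 between them over 28 arrays after group means were removed. The brightest, 1452318_a_at, ranged from 408 to 941.3 in control hearts with a median of 641.5. It ranged from 361.3 to 1404.7 in treated control hearts, with a median of 796.7, and from 370.8 to 1328.4 in del337TR hearts, with a median of 983. In treated del337TR hearts it ranged from 778.6 to 1942.5, with a median of 1068.7. As for Hspa1a, control hearts had the lowest and treated del337TR hearts the highest median, and the groups overlapped.

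The Hspa1b difference with WY14643 in del337TR mice was 0.69 ± 0.29, with a 95% interval from 0.08 to 1.29 and a limma adjusted p of 0.839. The other probe sets gave 0.60 ± 0.29 and 0.60 ± 0.31. In control mice the difference was 0.36 ± 0.29. Under WY14643, del337TR hearts differed from control hearts by 0.65 ± 0.29 (95% interval 0.05 to 1.26, limma adjusted p = 0.531). Hspa1a and Hspa1b code for near-identical messages, so their probe sets may share signal and are not independent measures of each other. The Hspa1b difference between responses was 0.33, and ranged from 0.14 without replicate 7 to 0.46 without replicate 6 of the treated control group. The untreated strain difference was 0.33, and ranged from 0.20 without replicate 3 to 0.50 without replicate 6 of the del337TR group. Without the same hearts, the difference with WY14643 in del337TR mice was 0.81 and 0.51. As for Hspa1a, replicate 7 had the lowest signal of the control and of the treated control group in all 3 Hspa1b probe sets. The part of the high actin ratios of these arrays was not tested.

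**Figure D1:**
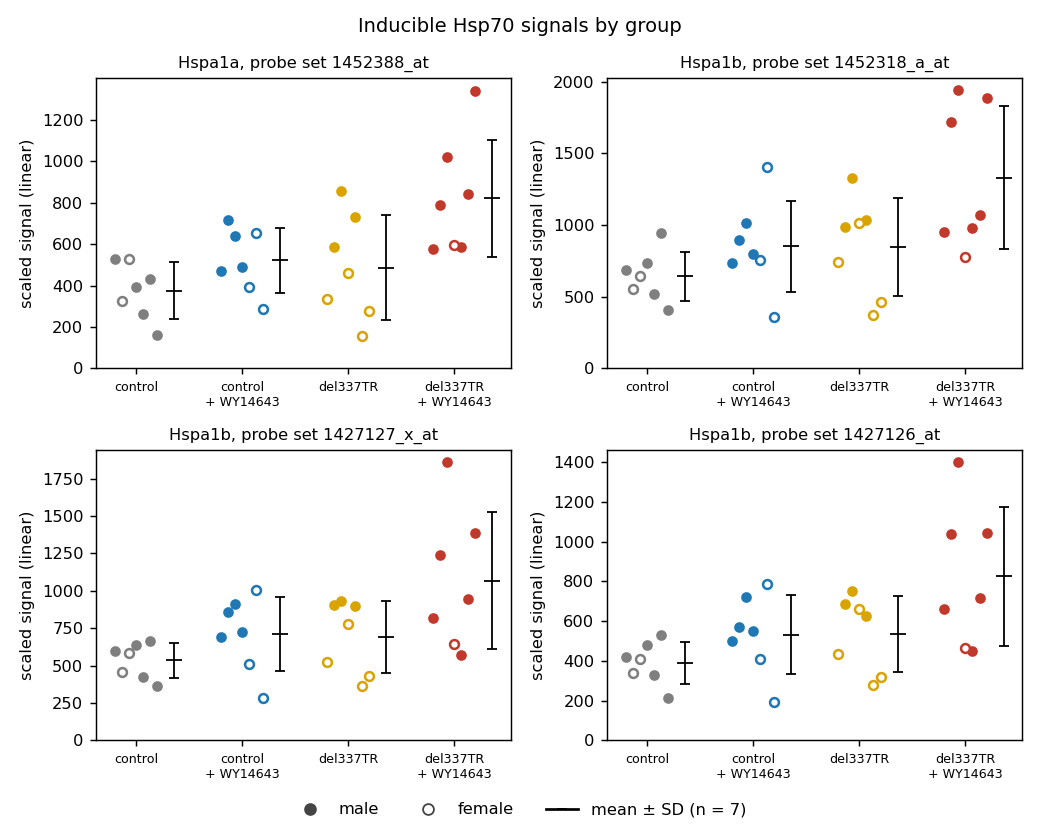
Linear scaled signal of the Hspa1a probe set and the 3 Hspa1b probe sets, 1 point for each heart and 7 for each group. Filled points are males and open points females by Xist and Eif2s3y, and black bars show the mean ± SD. In the Hspa1a panel the 4 females of the untreated del337TR group lie at or below 462.9, under every treated del337TR heart.

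The sexes were unevenly spread, and Hspa1a and Hspa1b means were lower in females than in males in most groups, without passing an adjusted p. In untreated del337TR hearts the Hspa1a signal was 158.3 to 462.9 in the 4 females and 587.2 to 855.6 in the 3 males. The lowest treated del337TR heart was at 577, above all 4 of these females and just under the lowest of the 3 males. Over all groups, females lay below males by a log2 difference of -0.51 ± 0.24 for Hspa1a (limma adjusted p = 0.952; 10 females, 18 males, with group in the model). The gap was largest in the untreated del337TR group, with mean Hspa1a signals of 308 in females and 724.5 in males. The means were 443.9 and 579.4 in treated control hearts, 597.6 (1 female) and 858.8 in treated del337TR hearts, and the other way in control hearts, at 426.6 and 354.8. For the 3 Hspa1b probe sets the female minus male difference was -0.48 ± 0.21, -0.55 ± 0.20 and -0.53 ± 0.22. None of the 25 probe sets passed an adjusted p of 0.05 for sex, against 0.0777% of all. At an unadjusted p under 0.05, 4 of 25 did, all of them Hspa1a or Hspa1b, against 5.22% of all probe sets.

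With sex as a covariate, the difference with WY14643 in del337TR mice was 0.67 ± 0.32 for Hspa1a and 0.48 ± 0.29 for Hspa1b. Among males alone, 3 untreated and 6 treated, it was 0.20 ± 0.34 for Hspa1a and 0.29 ± 0.28 for Hspa1b. The difference between the responses then turned over, to -0.60 ± 0.47 for Hspa1a and -0.14 ± 0.39 for Hspa1b. In males the larger contrast was between the strains without treatment, 1.13 ± 0.35 for Hspa1a and 0.81 ± 0.29 for Hspa1b, with limma adjusted p-values of 0.923 and 0.998. The part of sex in the treatment difference was not tested beyond these fits, and with 1 treated del337TR female no response can be measured in females of that strain.

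Dnajb1, the Hsp40 partner that delivers clients to Hsp70 and stimulates its ATPase, gave different results in its 2 probe sets. The brighter, 1416756_at, ranged from 366.1 to 774.5 in del337TR hearts with a median of 531.5. In treated del337TR hearts it ranged from 480.3 to 850.6 with a median of 701.9. The difference was 0.39 ± 0.16 (95% interval 0.06 to 0.72, limma adjusted p = 0.83), with 6 of 7 treated hearts above the untreated median. The second probe set, 1416755_at, gave 0.04 ± 0.09 for the same comparison, and the correlation between the sets was 0.28. In control mice the order was the other way, with 0.17 ± 0.16 for the first and 0.23 ± 0.09 for the second (limma adjusted p = 0.698). All 7 treated control hearts lay above the untreated control median in the second set.

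Hsp90aa1, the inducible cytosolic Hsp90 that keeps kinases and steroid receptors in a form ready for activation, had 3 bright probe sets and 2 dim ones. The dim sets, 1433251_at and 1441827_x_at, lie at the 46.7 and 10.9 percentile of brightness, and their correlations with the bright ones were -0.36 to -0.10. The brightest set ranged from 4301.2 to 5970.1 in control, with a median of 4468.4, and from 4019.9 to 5657.4 in treated control hearts, with a median of 4737.4. It ranged from 4428.4 to 5778.8 in del337TR, with a median of 5095. In treated del337TR hearts it ranged from 4514.8 to 8947.9, with a median of 5800.1. Of the 7 treated del337TR hearts, 5 lay above every treated control heart, while the other two lay within the treated control range.

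Under WY14643, the strains differed in Hsp90aa1 by 0.34 ± 0.12 (95% interval 0.10 to 0.58, limma adjusted p = 0.428), and by 0.36 ± 0.15 and 0.29 ± 0.14 in the other bright sets. The difference with WY14643 was 0.25 ± 0.12 in del337TR mice and -0.01 ± 0.12 in control mice. The difference between these responses was 0.26 ± 0.16 in the brightest set, 0.45 ± 0.22 in the second (limma adjusted p = 0.956) and 0.39 ± 0.19 in the third. Without replicate 3 of the treated del337TR group, which had the highest signal in all 3 bright sets, the strain difference under WY14643 was 0.24 ± 0.10 and the difference with WY14643 in del337TR mice 0.16 ± 0.10. Among males alone the strain difference under WY14643 was 0.36 ± 0.16, the difference with WY14643 in del337TR mice 0.15 ± 0.17 and the difference between the responses 0.14 ± 0.23.

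Hsph1, an Hsp110 that exchanges the nucleotide of Hsp70, showed how far 1 heart can set a group mean. Its brightest set ranged from 734.9 to 1167.9 in control, with a median of 864.2, and from 629.3 to 880.7 in del337TR hearts, with a median of 817.1. In treated control hearts it ranged from 605.7 to 1157.7, with a median of 887.5. In treated del337TR hearts the median was 762 and the range 490.5 to 2307.4. The top value belonged to replicate 3, and the next was 936.3. The difference with WY14643 in del337TR mice was 0.14 ± 0.22 with that heart and -0.10 ± 0.15 without it.

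Hspb1, the small heat shock protein Hsp27, which holds unfolded proteins without ATP and binds actin and intermediate filaments, was among the brightest of all probe sets, at the 99.8 percentile. Its signal ranged from 8081.9 to 15388.6 in control, 9461.6 to 14330.4 in del337TR, 9016.7 to 13176.3 in treated control and 10860.3 to 16896.2 in treated del337TR hearts. The medians were 10445.3, 11323.9, 11438 and 12668.6 in that order. All groups overlapped. The differences with WY14643 were 0.21 ± 0.13 in del337TR and 0.08 ± 0.13 in control mice, and the strains differed under WY14643 by 0.24 ± 0.13 (limma adjusted p = 0.617). The del337TR value was 0.04 ± 0.17 among males alone. The control value was 0.0093 without replicate 7 and 0.16 without replicate 3 of the control group. The second set had a correlation of 0.99 with the first.

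Hspa8 is the constitutive Hsp70, which folds new proteins and strips clathrin from vesicles. Its brightest set had medians of 9787.4 in control, 10538.2 in del337TR, 10457.8 in treated control and 11371.2 in treated del337TR hearts, within an overall span of 8459.8 to 14554.2. The difference with WY14643 in del337TR mice was 0.10 ± 0.10, with a 95% interval from -0.11 to 0.30. The third set, 1420622_a_at, gave 0.23 ± 0.12 (limma adjusted p = 0.872), and the dim last set, at the 40.5 percentile, gave 0.23 ± 0.30.

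Hspd1 and Hspe1 form the mitochondrial chaperonin, a double ring of Hsp60 with its Hsp10 lid. The Hspd1 probe set had the smallest SE of the 25, 0.08 for a difference between groups. Its signal ranged from 4595.5 to 5421.3 in control, 4417.6 to 5455.6 in del337TR, 4819.4 to 5474.5 in treated control and 4474.3 to 6127.2 in treated del337TR hearts. The difference with WY14643 was 0.04 ± 0.08 in del337TR mice, with a 95% interval from -0.12 to 0.20, and 0.05 ± 0.08 in control mice, from -0.11 to 0.21. These intervals leave out changes of the size fitted for Hspa1a in del337TR mice.

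Hspe1 had its highest median in treated control hearts, at 3096.4, with a range from 2995.2 to 4179.3. All 7 of these hearts lay above the untreated control median of 2767.4. The Hspe1 difference with WY14643 was 0.23 ± 0.14 in control mice (limma adjusted p = 0.788) and 0.03 ± 0.14 in del337TR mice. The second set gave 0.08 ± 0.10 and 0.01 ± 0.10. The medians of del337TR and treated del337TR hearts were 2755.4 and 2805.4 in the brightest set. The highest single signal of that set, 4602.6, was in a treated del337TR heart.

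Hspa5, also known as BiP, is the Hsp70 of the endoplasmic reticulum and holds its stress sensors inactive. It ranged from 4893.4 to 5491.6 in control hearts with a median of 4989, and from 5260.8 to 6860.2 in treated control hearts with a median of 5595.7. Of the 7 treated control hearts, 5 lay above every untreated one. The difference was 0.19 ± 0.10 (limma adjusted p = 0.745). In del337TR mice it was 0.10 ± 0.10, from a median of 5438.2 to 5293.4, so the medians and the mean log2 values moved in opposite directions. The dimmer set 1447824_x_at gave 0.31 ± 0.13 in del337TR mice (95% interval 0.04 to 0.57, limma adjusted p = 0.839). The 3 sets had correlations of -0.14 to 0.45 with each other, so they did not rank the hearts alike.

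**Figure D2:**
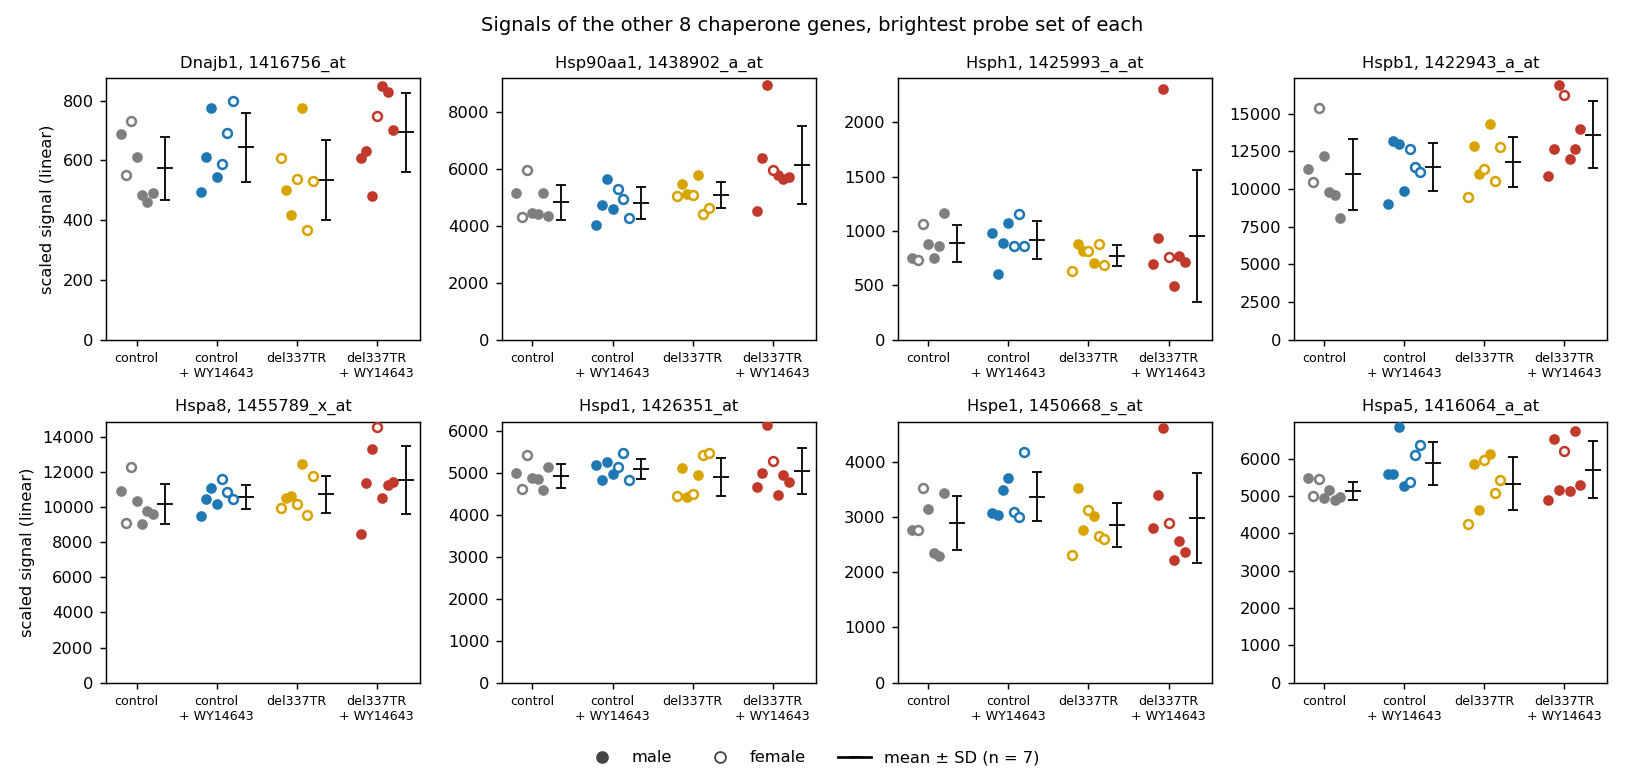
Linear scaled signal of the brightest probe set of each of the other 8 genes, 1 point for each heart, filled for males and open for females, with mean ± SD of 7. Each vertical axis starts at 0. The single high point in the Hsph1 panel, at 2307.4, and the top point of the Hsp90aa1 panel, at 8947.9, are the same heart.

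Read as a list with WY14643 in del337TR mice, all 10 brightest probe sets had a positive difference, from 0.03 to 0.89, with a median of 0.17, against 48.99% positive and a median of -0.00 over all genes. At an unadjusted p under 0.05, 7 of the 25 probe sets were higher, against 2.95% of all probe sets, and 0 were lower, against 2.83%. The 7 belong to 5 genes, Hspa1a, Hspa1b, Dnajb1, Hsp90aa1 and Hspa5. Probe sets of 1 gene share its message, so these are not 7 separate results. The members were chosen with earlier results of these data known, so the shares over all genes are a description and no test of the list. Both the sign and the count depended on which hearts were fitted. Without replicate 3 of the treated del337TR group 7 of 10 were positive, with Hsph1 at -0.10, Hspd1 at -0.010 and Hspe1 at -0.081, the median was 0.14, and 3 of 25 were higher at that threshold, of Hspa1a, Dnajb1 and Hspa5, against 3.15% of all. With sex as a covariate 4 of 25 were, against 3.1%, with Hspa1b at 0.48 ± 0.29 and the brightest Hsp90aa1 set at 0.24 ± 0.12. Among males alone 0 of 25 were, against 3.41%, the median was 0.08, and the brightest sets of Hspa8 and Hspe1 lay at -0.03 and -0.09.

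The other comparisons gave fewer. With WY14643 in control mice, 1 of 25 was higher, the second Dnajb1 set, against 2.39% of all, and 0 were lower, against 4.36%. The median of the brightest sets was 0.12, with 9 of 10 positive. That median was 0.077 after quantile normalization and 0.18 after centring. No share of positive differences over all genes is set beside the 9 of 10 here, so that count does not set the members apart from other genes. Between the strains under WY14643, 5 were higher, 3 of Hsp90aa1 and 2 of Hspa1b, against 5.25%, and 0 were lower, against 3.61%, with a median of 0.11 that became 0.028 after centring. With sex as a covariate 1 was higher, against 5.29%. Without replicate 3 of the treated del337TR group 1 was higher, against 5.32%, and 3 lower, of Hsph1 and Hspe1, against 3.8%. Between the untreated strains 0 were higher, against 1.66%, and 0 lower, against 2.35%, with a median of 0.06 that became -0.0020 for the mean of a gene's probe sets and 0.17 among males alone. Among males 4 were higher, of Hspa1a and Hspa1b, against 1.56%. For the difference between the responses, 1 was higher, the second Hsp90aa1 set, against 3.26%, and 0 were lower, against 1.65%. None was higher with sex as a covariate, among males alone or without replicate 3 of the treated del337TR group. The median was 0.11 and became -0.09 among males alone and 0.03 without replicate 3 of the treated del337TR group. Comparisons that share a group of 7 hearts are not independent of each other.

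**Figure D3:**
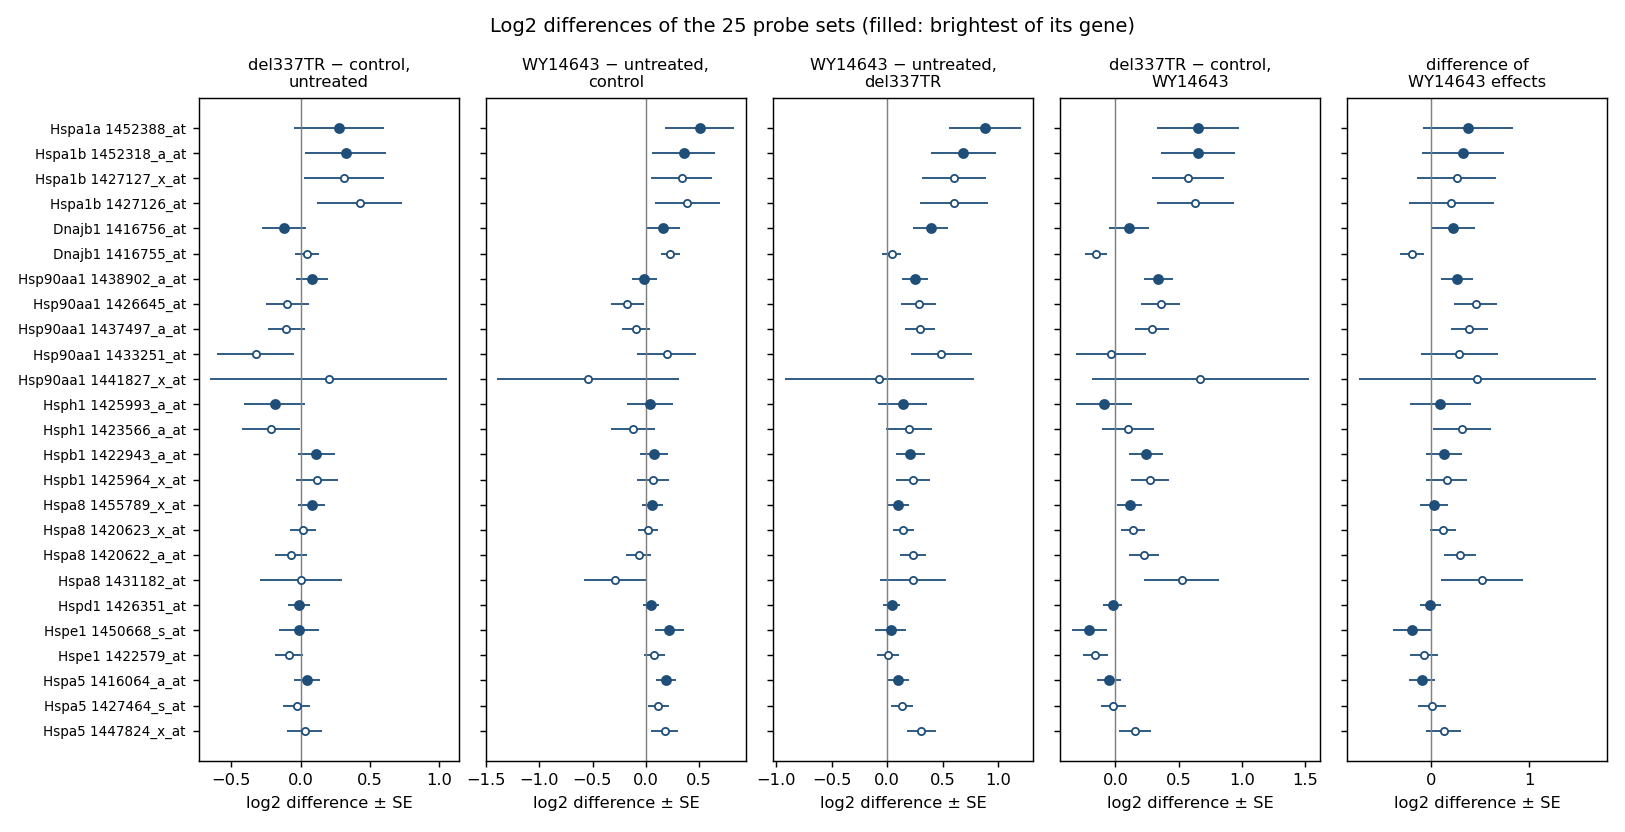
Log2 differences ± SE of the 25 probe sets in the 5 comparisons, each panel with its own scale, filled points marking the brightest probe set of a gene. In the third panel, WY14643 against untreated in del337TR mice, all 10 filled points lie to the right of 0, from 0.03 to 0.89.

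Markers of other cell types are given for the same comparison. In bulk tissue, fewer cells of a type and less RNA per cell cannot be told apart. With WY14643 in del337TR mice all 4 atrial markers were lower, with a median of -0.78 and 0 at an unadjusted p under 0.05. Their summed signal spanned 12753 to 50282.3 without treatment and 9224.9 to 51569.9 with it. The median of that sum went the other way, from 19781.1 without to 21742.7 with treatment. Of the 5 adipocyte markers measured, 3 were lower at that threshold, among them Retn by -1.08 ± 0.33. Their sum, carried mostly by Fabp4, spanned 7847.9 to 11305.9 without and 8317.9 to 13865.3 with treatment. All 4 smooth muscle markers were lower, 1 of them at that threshold. Their sum spanned 2867 to 6691.5 without and 3397.3 to 4958 with treatment. No marker was at 0 in all hearts; the lowest single signal among these lists was 1.7, for Cidec. Of the other lists, 6 of 8 fibroblast, 5 of 7 endothelial and 4 of 7 leukocyte markers were lower, with medians of -0.09, -0.08 and -0.05, and both erythroid markers measured were higher. Of the 10 cardiomyocyte markers 8 were higher, with a median of 0.11 and 0 at that threshold. Their sum spanned 116288 to 154324 without and 113314 to 183312 with treatment, with medians of 130482 and 149426. The part of these cell types in the chaperone differences was not tested.

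Some members varied together between hearts of the same group. Correlations were taken over 28 arrays on log2 signals with group means removed, which leaves scaling and RNA quality shared by the points of an array. Of 45 pairs of brightest probe sets 39 were positive, with a median r of 0.36. Over all pairs of 13315 other genes, with means above the 40th percentile, 50.25% were positive and the median was 0.0015. The brightest sets of the members lay at the 85 to 99.8 percentile, so this background is not matched for brightness. Of the 45, 8 passed an adjusted p of 0.05 in a permutation test within groups, Benjamini-Hochberg over the 45. By Spearman's rho 10 passed. No pair with Dnajb1 or Hspa5 was among the 8. The number of pairs was 12 after quantile normalization, 24 after centring and 12 without replicate 7 of each group, with all 8 among them each time. Hspa1a and Hspa1b gave r = 0.86 (rho = 0.84), and 0.79 to 0.96 within the single groups. Their messages are near-identical and their probe sets may share signal, so this r does not show that the genes themselves vary together. Hspb1 and Hspa8 gave r = 0.81 (rho = 0.82), and 0.81 to 0.93 within groups. For both pairs the permutation p was 1e-05, the smallest it can give, and the adjusted p 0.000225. Without the 2 hearts farthest from the median of the first gene named in a pair, r was 0.83 and 0.82.

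Hsp90aa1 varied with Hspa8, Hspb1, Hspa1b and Hspa1a. Its r was 0.71 with Hspa8, 0.68 with Hspb1, 0.56 with Hspa1b and 0.54 with Hspa1a (permutation adjusted p = 0.00457, 0.00135, 0.00686 and 0.00686). The corresponding rho values were 0.65, 0.60, 0.69 and 0.67. Leaving out 2 hearts gave r of 0.61, 0.62, 0.53 and 0.50. These hearts were those farthest from the Hsp90aa1 median for the first 2 values. For the third value they were those farthest from the Hspa1b median, and for the fourth from the Hspa1a median. With Hsph1, Hspe1 and Hspd1, Hsp90aa1 gave 0.53, 0.46 and 0.46 (permutation adjusted p = 0.124, 0.124 and 0.116). Without replicate 3 of the treated del337TR group these were 0.10, 0.17 and 0.17. Hsph1 went with the mitochondrial chaperonin genes, at r = 0.74 with Hspe1 and 0.69 with Hspd1 (rho = 0.60 and 0.56, permutation adjusted p = 0.00281 and 0.0045). Without the 2 hearts farthest from the Hsph1 median these fell to 0.52 and 0.44, and within treated control hearts Hsph1 and Hspe1 gave 0.09. Hspa1a and Hspa1b had r of -0.09 and -0.07 with Hspd1. Hspd1 and Hspe1, which share the printed promoter stretch, gave r = 0.52 with each other (rho = 0.37, permutation adjusted p = 0.0605). Without replicate 3 of the treated del337TR group this was 0.28 (0.318). Dnajb1 depended on 1 heart. With Hsph1 it gave -0.46 (permutation adjusted p = 0.0597), and -0.27 (0.317) without replicate 3 of the treated del337TR group. With Hsp90aa1 it gave 0.13 (0.663), and 0.50 (0.0359) without that heart. Over those 27 hearts Dnajb1 also gave 0.57 with Hspb1 and 0.54 with Hspa8 (permutation adjusted p = 0.0205 and 0.0177).

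**Figure D4:**
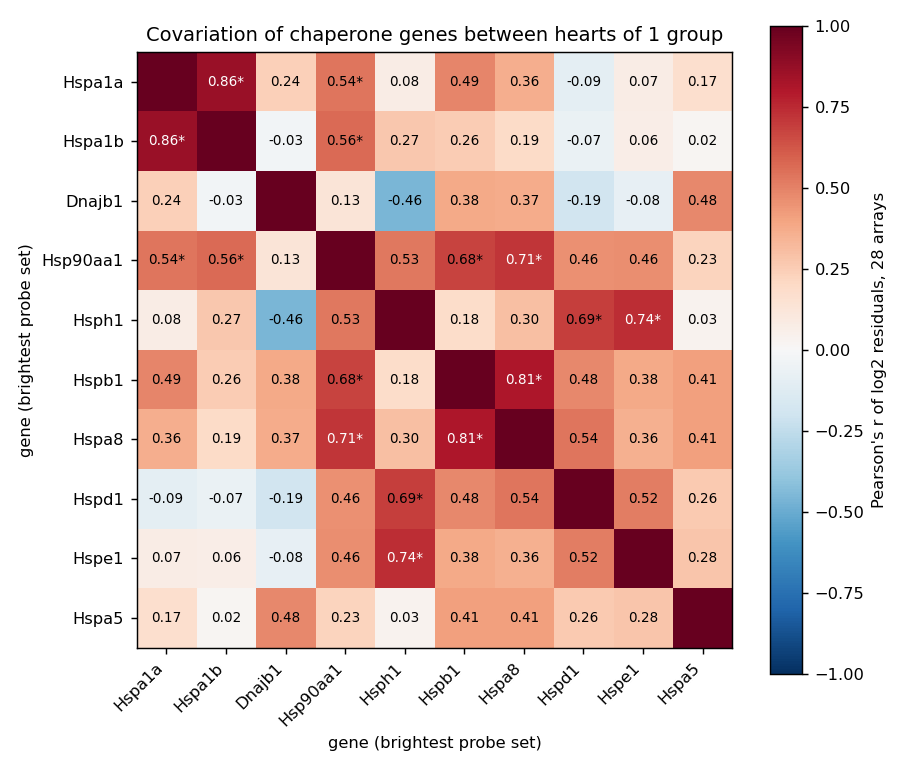
Pearson's r between the brightest probe sets of the 10 genes, over 28 arrays on log2 signals with group means removed; red is positive, blue negative, and an asterisk marks the 8 pairs with a permutation adjusted p under 0.05. The highest is 0.86 for Hspa1a with Hspa1b, whose probe sets may share signal, and Dnajb1 with Hsph1 is the lowest at -0.46.

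Among 13315 other genes, those most like Hspa1b by the same measure over 28 arrays were Prkar2a at r = 0.69, Fosl1 at 0.69, Tmub1 at 0.68, 4930505O20Rik at 0.67 and Yrdc at 0.66. All are below the 0.86 of Hspa1a, whose probe set may share signal with that of Hspa1b. Of the genes searched, 1% had r above 0.53. Their own differences with WY14643 in del337TR mice ranged from 0.02 ± 0.07 for Prkar2a to 0.66 ± 0.58 for Fosl1.

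The array map shows how hearts of 1 group differ. Replicate 3 of the treated del337TR group was the highest of its 7 in 16 of the 25 probe sets, of 7 genes. These are all sets of Hspa1b, Hsph1, Hspb1, Hspd1 and Hspe1, 4 of Hsp90aa1 and 2 of Hspa8. It was the lowest in the brighter Dnajb1 set, at 480.3. Its actin ratio of 1.09 was the lowest of all 28 arrays, and its part in these values was not tested. Without it, 15 pairs of members passed the permutation test instead of 8, with all 8 among them.

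**Figure D5:**
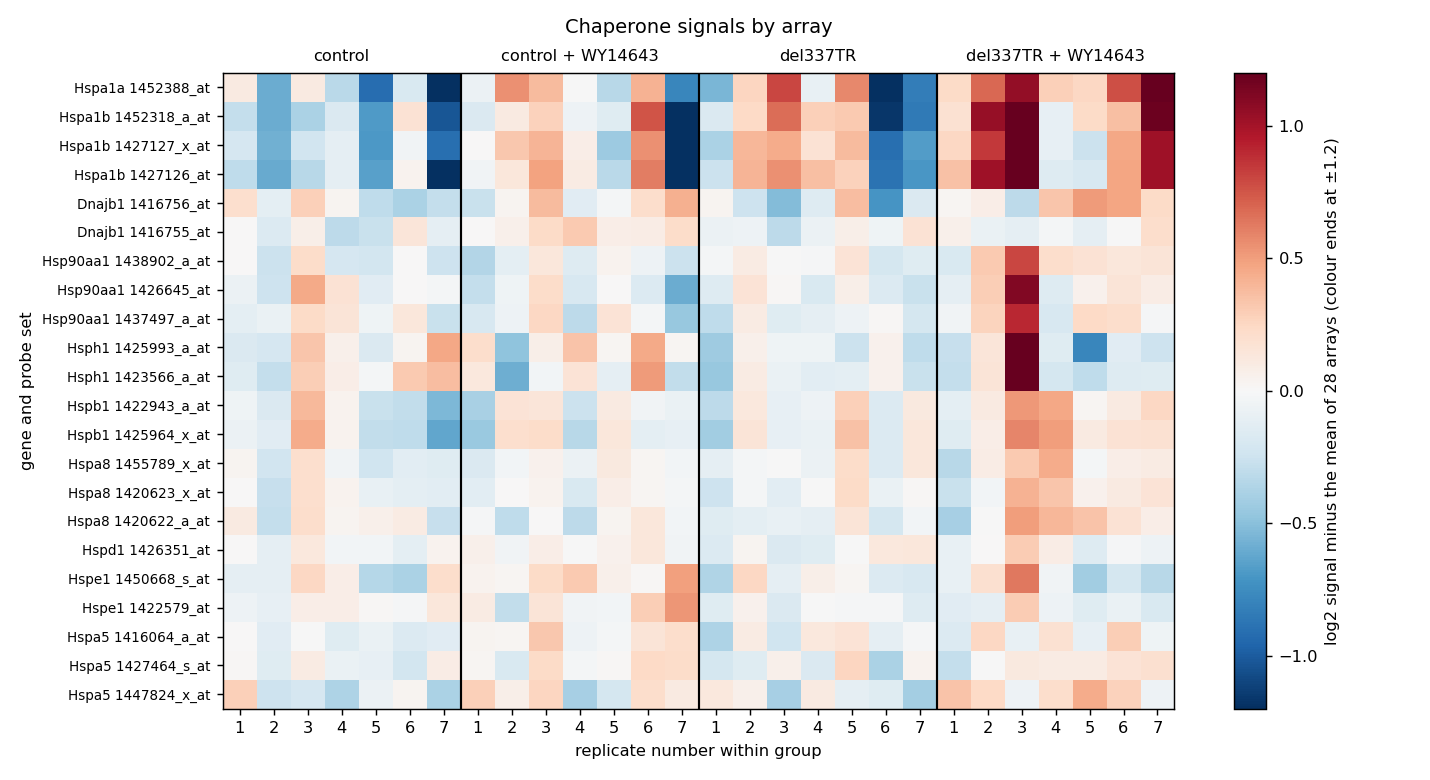
Log2 signal minus the mean over 28 arrays for the 22 member probe sets with a mean log2 signal above 8; columns are hearts by group and replicate number, red is above the mean, blue below, and the colour ends at ±1.2. The Hspa1a row varies most of those drawn in the control and del337TR groups, with log2 SDs of 0.62 and 0.86, and replicate 3 of the treated del337TR group is red in the Hsp90aa1 and Hsph1 rows.

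The rest of the chaperone network was read from lists of genes, 1 probe set each, and no gene of them passed an adjusted p of 0.05 in any comparison by limma. The heat shock factors and their regulators, 10 of 11 measured with Hsf1 not among them, had 4 higher and 6 lower with WY14643 in del337TR mice and none at an unadjusted p under 0.05. Of 34 cytosolic chaperones and co-chaperones, 23 were higher and 11 lower, with 2 in each direction at that threshold. The 2 with the smallest p, both higher, were Ahsa2, a relative of the Hsp90 activator Aha1, at 0.44 ± 0.15 and Bag2, a cofactor of Hsp70, at 0.33 ± 0.15. The 2 lower, named after their values were seen, were Bag5, also an Hsp70 cofactor, at -0.25 ± 0.11 and Hikeshi, which carries Hsp70 into the nucleus, at -0.24 ± 0.11. Of the 9 small heat shock proteins 7 were higher, 1 of them at the threshold. That was Hspb8, the partner of Bag3 in disposal of damaged protein, at 0.32 ± 0.09 (limma adjusted p = 0.767).

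The lists of other compartments had medians near 0. In the same comparison 13 of 28 genes of the endoplasmic reticulum response were higher, with a median of -0.02 and 1 at the threshold, the sensor kinase Ern1 at -0.76 ± 0.27. Of 17 mitochondrial chaperones and proteases 7 were higher, with a median of -0.01. Of 16 CCT chaperonin and prefoldin subunits, which fold actin and tubulin, 4 were higher and 12 lower, with a median of -0.02. Under WY14643, 4 of those 16 were lower in del337TR than in control mice at an unadjusted p under 0.05. The lowest p of these was that of Pfdn6, whose difference was -0.53 ± 0.13 (limma adjusted p = 0.403). Of 13 oxidative and metal stress genes 12 were higher with WY14643 in del337TR mice, with a median of 0.26. In control mice 11 were higher, with a median of 0.13, and no share over all genes is set beside that count. Gadd45b, a stress and growth arrest gene, gave 0.63 ± 0.28 in del337TR mice (limma adjusted p = 0.844). Of 19 immediate early genes, which respond within minutes to many stimuli, 14 were higher with WY14643 in del337TR mice, with a median of 0.12.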

How the data were processed

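Hearts of 28 mice in 4 groups of 7 were each measured on 1 array, and group and replicate number came from the sample titles. The deposited values are intensity values on a linear scale. The submitters' processing notes name RMA with no version, but the authors' deposited values were not log values and had a 2% trimmed mean of 250 on every array, so they were taken as globally scaled signals; log2 values had been assumed in the design. Annotation gave 34945 probe sets 1 symbol, 932 several and 9160 none; 64 control probe sets were left out. Signals under 0.1 were set to 0.1 (3 values) and log2 values were fitted with limma 3.58.1 in R 4.3.3 as 4 group means, 24 residual degrees of freedom, without a replicate block. A gene is named by its brightest probe set, and the genes named from other lists are, for each list and comparison, drawn from the 2 with the smallest unadjusted p under 0.05. The model was tested on simulated data. The number of arrays limits the precision, no 2 arrays were identical, and no batch, dose or date was given in the sources used here. Correlations used 100000 permutations within groups (Python 3.11.15, numpy 2.4.6). Alternatives were 16 added to each signal, quantile normalization, centring, a filter at the 40th percentile, a robust trend, the mean of a gene's probe sets, only the groups compared, sex as a covariate, a replicate block, and leaving out arrays. Fits of males alone, correlations without 1 array and the other scalings of the lists were added later, with the values known. The members and lists were chosen with earlier results of these data known.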

Additional observations from a re-analysis of the deposited data

Results flagged for a closer look

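Of 100 groups of 7 signals searched (25 probe sets in 4 groups), 8 held 1 heart far from the rest by Dixon's criterion. That criterion marks about 1 in 20 groups of independent, normally distributed values. The signals are on a linear scale and several probe sets share a gene and its arrays, so those rates cannot be compared directly. Of the 8, 6 were the same heart, replicate 3 of the treated del337TR group. Its signal was 8947.9, 6040.3 and 3889.6 in the 3 bright Hsp90aa1 sets, where the next hearts had 6409.7, 3438.8 and 2496.4. In Hsph1 it was 2307.4 and 1544.6, against 936.3 and 634.5, and in the second Hspe1 set 1115.7 against 864.4. The other two concern the dim Hsp90aa1 set 1433251_at. Replicate 4 of the control group was lowest there, at 22.6 against 52.4, and replicate 7 of the treated del337TR group highest, at 115.3 against 68.7.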

How the results depend on the processing

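No member passed an adjusted p of 0.05 under any alternative, and none of the large differences of Hspa1a, Hspa1b, Dnajb1 and Hsp90aa1 with WY14643 in del337TR mice changed sign. Of 540 member differences refitted under other settings 32 changed sign and of 1400 with 1 array left out 37 did; the cause was not tested. For WY14643 in control mice, quantile normalization gave -0.054 for Hspb1, -0.069 for Hspa8 and -0.023 for Hspd1, centring 0.051 for Hsp90aa1, the mean of probe sets -0.036 for Hsph1 and -0.065 for Hspa8, and males alone 0.0085 for Hsp90aa1 and -0.0045 for Hsph1. For WY14643 in del337TR mice, quantile normalization gave -0.0019 for Hspd1, centring -0.0065 for Hspe1, and males alone -0.028 for Hspa8 and -0.090 for Hspe1. Between untreated strains, quantile normalization gave -0.0023 for Hspa5, centring 0.0055 for Hspd1 and 0.0054 for Hspe1, the mean of probe sets -0.048 for Hsp90aa1, and males alone 0.012 for Dnajb1 and 0.16 for Hspe1. Between strains under WY14643, the mean of probe sets gave -0.023 for Dnajb1, 0.0036 for Hsph1 and 0.029 for Hspa5. For the difference between responses, quantile normalization gave 0.021 for Hspd1, centring -0.0031 for Hsph1 and -0.066 for Hspa8, sex as a covariate 0.012 for Hspd1, the mean of probe sets 0.015 for Hspa5, and males alone -0.60 for Hspa1a, -0.14 for Hspa1b, -0.095 for Hspb1, -0.079 for Hspa8 and -0.087 for the median of the members.

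With 1 array left out at a time, values spanned -0.051 to 0.043 for Hsp90aa1 and -0.016 to 0.14 for Hsph1 (WY14643 in control mice), -0.010 to 0.066 for Hspd1, -0.081 to 0.094 for Hspe1 and -0.10 to 0.27 for Hsph1 (WY14643 in del337TR mice), -0.039 to 0.012 for Hspd1 and -0.066 to 0.039 for Hspe1 (untreated strains), -0.071 to 0.0048 for Hspd1 and -0.33 to 0.039 for Hsph1 (strains under WY14643), and -0.027 to 0.10 for Hspa8, -0.059 to 0.017 for Hspd1 and -0.15 to 0.23 for Hsph1 (difference between responses). Without replicate 7 of each group together, Hspe1 was 0.052 between untreated strains and Hspd1 0.0051 for the difference between responses. Centring on the median raised the pairs of members past the permutation threshold from 8 to 24, and leaving out replicate 3 of the treated del337TR group to 15. Centring moved the median of all genes by at most -0.098. Whether the replicate numbers pair the hearts was not settled. Of 42 correlations of same-numbered hearts 6 were above 0.1, in a range of -0.16 to 0.22. No correlations of differently numbered hearts are set beside them. Replicate 3 had the highest mean log2 value of the members in control, treated control and treated del337TR hearts, at 11.46, 11.51 and 11.89. In del337TR hearts replicate 5 had it, at 11.49. With a replicate block the Hspa1a difference with WY14643 in del337TR mice stayed 0.89, the median of the members 0.17, and the members past the threshold 0.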
